A study of Mus musculus with 18 samples.

Results

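De novo lipogenesis is the route by which the liver turns sugar-derived acetyl units into fatty acid. Its core in the mouse was taken as 10 genes, the rows of the count table with the symbols Srebf1, Mlxipl, Thrsp, Acly, Me1, Acaca, Acacb, Fasn, Elovl6 and Scd1. All 10 were among the 52636 gene IDs of the table, and all 10 were among the 13958 genes that passed the filter on low counts and were tested. RNA was sequenced from 18 mouse livers taken at ZT8, which is 8 hours after lights on, in 6 groups of 3 biological replicates. Every mouse, WT included, received tamoxifen (10 mg/mL) on 5 days at 8 weeks of age.

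H-KO and H-WT livers came at 10 weeks from a line with the alleles Hnf4atm1.1Gonz and Albtm1(cre/ERT2)Mtz. BH-KO and BH-WT livers came at 10 weeks from a line with Arntltm1Weit besides those alleles. BH-HF-KO and BH-HF-WT livers came from the BH line at 45 weeks, after 35 weeks on a high-fat diet. Hnf4a encodes a nuclear receptor that maintains hepatocyte gene expression, and Arntl (Bmal1) an activator of the circadian clock. The Cre is driven by the albumin gene and activated by tamoxifen, so recombination is directed to hepatocytes and the other cells of the liver keep their alleles. KO and WT mice of a setting have the same strain label, and the labels do not say how their genotypes differed. Age and diet both differ between the BH-HF and BH groups and cannot be told apart.

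On mm10, Srebf1 (chr11:60199089-60222581), Acly (chr11:100476353-100528000) and Fasn (chr11:120805846-120824547) lie on the minus strand of chromosome 11, and Acaca (chr11:84129672-84401651) on its plus strand. Mlxipl (chr5:135089890-135138382), Acacb (chr5:114146535-114250761) and Elovl6 (chr3:129532355-129638495) are on plus strands, and Scd1 (chr19:44394455-44407879), Thrsp (chr7:97412938-97417730) and Me1 (chr9:86581371-86695953) on minus strands.

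The pathway starts in the cytosol, where ATP-citrate lyase releases acetyl-CoA from citrate, acetyl-CoA carboxylase makes malonyl-CoA, and fatty acid synthase builds palmitate with NADPH. Elongation and desaturation then give the oleate that is stored in triglyceride. In the liver, insulin acts on these genes largely through SREBP-1c, a product of Srebf1, and sugar largely through ChREBP, the product of Mlxipl. The liver X receptors (LXR) and the clock also act on Srebf1.

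The promoters of Srebf1, Mlxipl, Fasn and Thrsp are shown because these were the 4 members that fell in BH-KO livers. The windows are from RefSeq (GRCm38.p6) and hold 250 bases before and 50 after a gene's start. Letters run 5′ to 3′ on the gene's strand, and capitals mark the matches to the motifs searched on both strands. The Srebf1 window (1 of 3) is at chr11:60210422-60210721, minus strand. The Mlxipl window (1 of 2) is at chr5:135089640-135089939, plus strand. The Fasn window is at chr11:120824498-120824797 and the Thrsp window at chr7:97417501-97417800, both on the minus strand.
Srebf1: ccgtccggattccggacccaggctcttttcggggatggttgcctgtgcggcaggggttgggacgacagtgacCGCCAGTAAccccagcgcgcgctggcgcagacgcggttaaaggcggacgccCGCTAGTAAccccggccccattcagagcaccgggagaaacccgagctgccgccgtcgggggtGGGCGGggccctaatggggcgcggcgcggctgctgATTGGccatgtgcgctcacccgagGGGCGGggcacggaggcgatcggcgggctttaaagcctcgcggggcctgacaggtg
Mlxipl: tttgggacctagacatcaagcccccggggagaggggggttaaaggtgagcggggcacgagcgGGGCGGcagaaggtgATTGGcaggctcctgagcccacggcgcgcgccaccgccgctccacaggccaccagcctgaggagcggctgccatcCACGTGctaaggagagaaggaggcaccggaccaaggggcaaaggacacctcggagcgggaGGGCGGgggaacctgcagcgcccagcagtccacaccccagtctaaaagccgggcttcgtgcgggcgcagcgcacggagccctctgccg
Fasn: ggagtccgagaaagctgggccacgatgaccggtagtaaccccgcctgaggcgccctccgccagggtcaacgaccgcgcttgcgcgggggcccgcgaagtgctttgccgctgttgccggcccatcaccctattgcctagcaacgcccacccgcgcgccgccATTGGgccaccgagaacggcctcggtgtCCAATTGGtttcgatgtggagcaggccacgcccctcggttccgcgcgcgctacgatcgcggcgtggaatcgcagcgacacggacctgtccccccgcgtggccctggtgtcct
Thrsp: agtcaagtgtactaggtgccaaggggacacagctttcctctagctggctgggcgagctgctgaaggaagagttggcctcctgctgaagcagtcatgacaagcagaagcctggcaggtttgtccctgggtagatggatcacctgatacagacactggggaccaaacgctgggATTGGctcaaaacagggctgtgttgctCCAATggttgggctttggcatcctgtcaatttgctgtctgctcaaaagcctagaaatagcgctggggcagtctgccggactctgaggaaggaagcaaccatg
The motifs were the E-box CACGTG, the sterol response element TCACNCCAC, the CCAAT box CCAAT, the GC box GGGCGG, the TATA box TATAAA, the HNF4-specific motif CAAAGTCCA, the nuclear receptor motif AGGTCA, the D-box TTATGTAA, and TTACTNGCG, a core of the LXR elements described for mouse Srebf1. With +1 at the start, the Srebf1 window held TTACTNGCG on its minus strand at -178 and -127. These letters were in 0.143% of 32851 promoter windows. They come from elements described for Srebf1 itself, so this match was given in advance and is not a finding. The only E-box among the 13 windows of 9 members was in Mlxipl, at -98, against 7.15% of all windows. CCAAT boxes were in 8 of the 13 member windows, from 7 members (37.4% of all windows), and in Fasn those at -62 and -59 overlap. GC boxes were in 5 of the 13, from 4 members (35.7% of all windows). The sterol response element was in the second Mlxipl window (1.24% of all windows), the TATA box in Acacb (13.6%), and AGGTCA in Acly, Acacb and Elovl6 (16.3%). No member window held the HNF4-specific motif (0.475% of all windows) or the D-box (0.938%). These are matches of letters and not measured binding sites. Elements that differ from the letters searched would be missed, so a window without a match may still hold one. Scd1 had no promoter window.

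Total counts were 6846471 to 9816124 per library, and the 10 genes had 67 to 45802 counts each per library. Levels are given as CPM, the counts of a gene scaled to the library's total and its TMM factor, and each fold change is on the log2 scale with its standard error (SE). Deletion removes only part of a gene, so counts over the whole gene check the labels weakly. Hnf4a averaged 593 ± 56.3 CPM in H-KO and 757 ± 159 CPM in H-WT livers (SD, n = 3 each), and its 3 KO against WT tests had adjusted p-values of 0.164 to 1. Arntl read 17.4 to 24.1 CPM in BH-KO and 0.421 to 0.799 CPM in BH-WT livers. It was higher in the KO by 5.00 ± 0.43 (adjusted p = 2.13e-06), and it was at most 2.61 CPM outside BH-KO. The BH-WT values were only 3, 6 and 5 counts, so the size of this difference rests on few counts. No such rise of Arntl was seen in the libraries labelled BH-HF-KO, at 0.885 to 2.54 CPM against 1.03 to 2 CPM in BH-HF-WT livers. The cause of the rise in BH-KO, and of its absence in BH-HF-KO, was not tested. The BH-HF-KO label is thus left unchecked by Arntl, a limit wherever a direction is drawn from those libraries. Alb was lower in those libraries (29890 to 41400 CPM in BH-HF-KO and 71910 to 90870 CPM in BH-HF-WT livers), without overlap. It was also lower in H-KO (9848 to 12770 CPM) than in H-WT livers (71620 to 81660 CPM). The Cre allele is an allele of Alb, and the labels do not say which mice carried it. Its part in these Alb values cannot be told apart from that of the KO. BH-KO replicate 1 stood apart, with a score of 1.32 on the first principal component against -80.3 and -79 in the other 2 BH-KO libraries, and with Alb at 42220 CPM against 18840 and 13810 CPM. H-WT replicate 3 had Xist at 1084 CPM and Ddx3y at 5.74 CPM, a female pattern that no other library had. The 7 of 8 defining hepatocyte markers found in the table were above 0 in every group.

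H-KO livers had less RNA of both transcription factors and of the desaturase gene Scd1, and more of the carboxylase gene Acaca and the elongase gene Elovl6. They also had more Acacb and Acly, by calls that were not firm. In H-KO against H-WT, 4 of the 10 genes rose and 3 fell at an adjusted p under 0.05, where 34.9% of all genes tested were called (15.8% rose and 19.1% fell). The groups did not overlap in 9 of the 10, where 51.9% of all genes did not overlap. The median log2 fold change was 0.50 over the 10 genes and -4.72e-05 over all genes. In tissue RNA, fewer cells of a type and less RNA per cell cannot be told apart.

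Srebf1, which encodes SREBP-1, read 124, 86.4 and 103 CPM in H-KO livers, against 232, 200 and 314 CPM in H-WT livers. Every H-KO value was below every H-WT value, and the log2 fold change was -1.25 ± 0.21 (adjusted p = 0.000369). Mlxipl, which encodes ChREBP, read 117, 133 and 150 CPM in H-KO livers, against 325, 398 and 369 CPM in H-WT livers. The groups were again apart, by -1.45 ± 0.17 (adjusted p = 2.78e-05). Thrsp, whose product Spot 14 supports fatty acid synthesis, read 354, 355 and 573 CPM in H-KO livers, against 272, 217 and 323 CPM in H-WT livers. All H-KO values were higher, but the difference of 0.66 ± 0.36 did not pass (adjusted p = 0.174).

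Acly, which encodes ATP-citrate lyase, read 415, 310 and 407 CPM in H-KO livers, against 261, 227 and 250 CPM in H-WT livers. The groups did not overlap and Acly rose by 0.62 ± 0.22 (adjusted p = 0.0428). Me1, the malic enzyme that yields NADPH, read 129 to 150 CPM in H-KO and 127 to 170 CPM in H-WT livers, with overlap and a log2 fold change of -0.06 ± 0.43 (adjusted p = 0.933) that was 0.10 with upper-quartile scaling. Acaca, the cytosolic carboxylase that feeds synthesis, read 214, 200 and 282 CPM in H-KO livers, against 77.7, 83.7 and 69.8 CPM in H-WT livers. It rose by 1.59 ± 0.18 (adjusted p = 2.63e-05), a 3.01-fold difference with a wide gap between the groups. Acacb, the carboxylase at the mitochondrial surface whose malonyl-CoA restrains fatty acid oxidation, read 102, 118 and 98.6 CPM in H-KO livers, against 13.2, 26.2 and 52.7 CPM in H-WT livers. All H-KO values were higher, the H-WT values were spread widely, and Acacb rose by 1.79 ± 0.59 (adjusted p = 0.0303).

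Fasn, the synthase itself, read 500.4, 556 and 597 CPM in H-KO livers, against 457, 346 and 467 CPM in H-WT livers. The H-KO values were higher without overlap, but the difference of 0.38 ± 0.36 did not pass (adjusted p = 0.455). Elovl6, which extends palmitate to stearate, read 159, 158 and 173 CPM in H-KO livers, against 81, 95.8 and 109 CPM in H-WT livers. It rose by 0.78 ± 0.15 (adjusted p = 0.00107) with the groups apart. Scd1, which desaturates stearate to oleate, read 266, 318 and 263 CPM in H-KO livers, against 1524, 5470 and 3151 CPM in H-WT livers. It fell by 3.58 ± 0.64 (adjusted p = 0.00068), or 12-fold, the largest of the 10 changes, and every H-WT library was far above every H-KO library. The calls of Acly and Acacb were not firm. Acly lost its call without any library of the 6 other than H-KO replicate 2 (adjusted p 0.036 to 0.13 over the 6), and Acacb without any other than H-WT replicate 3 (0.0157 to 0.106). Acacb was at 2.42 without H-WT replicate 3. The summed CPM of hepatocyte markers was 21600 to 24600 in H-KO and 102000 to 110000 in H-WT livers. Alb held much of that sum (9848 to 12770 CPM in H-KO and 71620 to 81660 CPM in H-WT livers). Of the 7 markers, 4 fell and 0 rose, against 19.1% and 15.8% of all genes. Cholangiocyte markers summed to 110 to 171 CPM in H-KO and 33.2 to 58.8 CPM in H-WT livers. Adipocyte markers summed to 9.08 to 12.7 CPM in H-KO and 14 to 21.9 CPM in H-WT livers, with Adipoq and Lep at 0 in both. The part of cell makeup in these results was not tested.

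**Figure D1:**
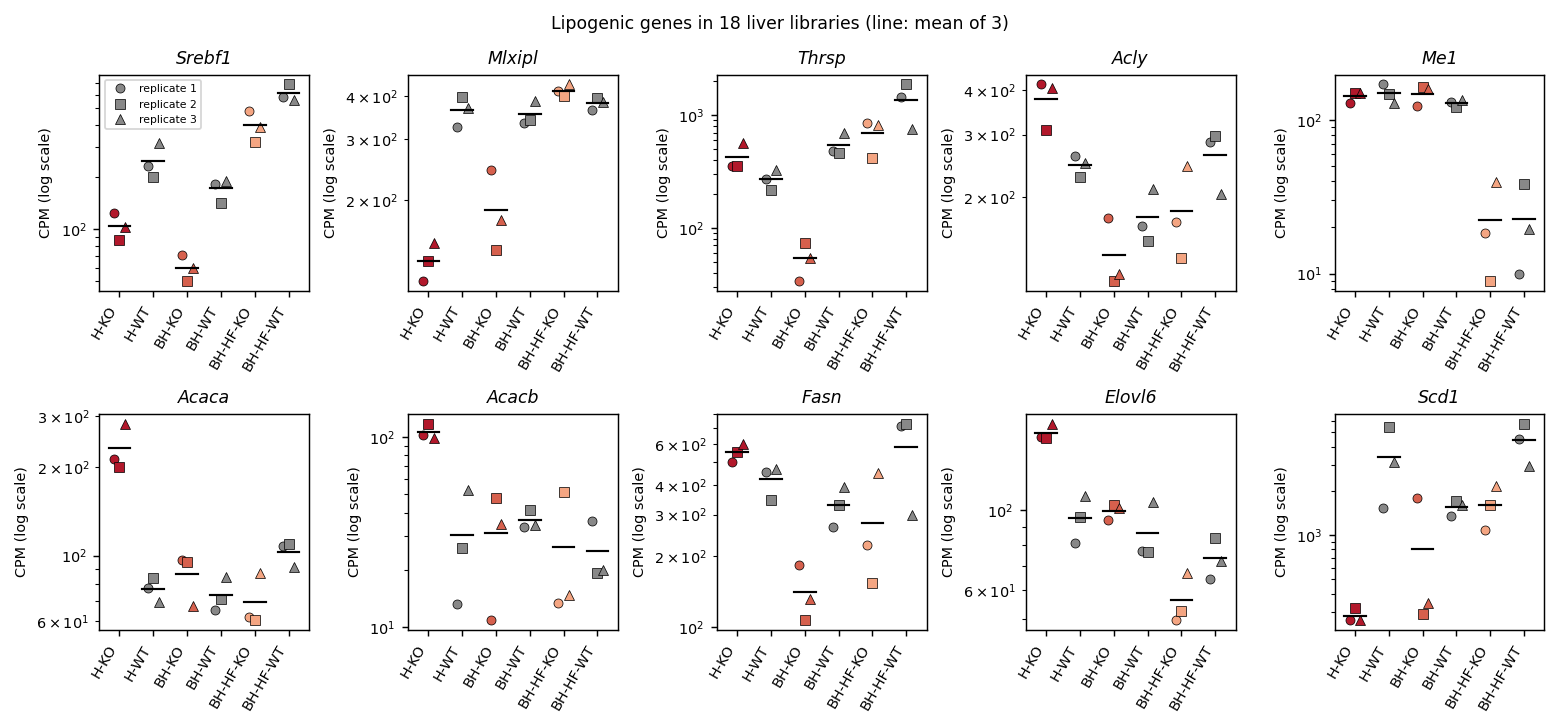
CPM of the 10 genes (log axis) in each of the 18 libraries, by group, with a symbol for each replicate number and a line at the mean of 3; KO groups are red to orange and WT groups grey. Scd1 lies at 263 to 318 CPM in H-KO and 1524 to 5470 CPM in H-WT livers, and Thrsp at 33.6 to 72.8 CPM in BH-KO and 466 to 694 CPM in BH-WT livers.

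In BH-KO livers, from the line that also carries the Arntl allele, Thrsp, both transcription factors and Fasn fell, and none of the 10 genes rose. In BH-KO against BH-WT, 4 of 10 fell, where 28.6% of all genes were called (14.3% rose and 14.3% fell). That background of 3990 genes was 1096 when only these groups were fitted (with 3 of the 10 called) and 2330 to 5916 without 1 library, lowest without BH-KO replicate 2 or 3. The groups did not overlap in these 4 genes, against 34.9% of all genes. The median log2 fold change was -0.64 over the 10 genes and 0.03 over all genes.

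Srebf1 read 70.5, 50.1 and 59.3 CPM in BH-KO livers, against 183, 142 and 190 CPM in BH-WT livers. It fell by 1.52 ± 0.21 (adjusted p = 0.000131), with the groups apart. Mlxipl read 244, 143 and 175 CPM in BH-KO livers, against 335, 342 and 387 CPM in BH-WT livers. All BH-KO values were lower, replicate 1 the least so, and Mlxipl fell by 0.92 ± 0.17 (adjusted p = 0.00107). Thrsp read 33.6, 72.8 and 53.6 CPM in BH-KO livers, against 479, 466 and 694 CPM in BH-WT livers. It fell by 3.36 ± 0.40 (adjusted p = 4.05e-05), or 10.2-fold, and no library came near the other group. Fasn read 183, 106 and 131 CPM in BH-KO livers, against 264, 329 and 395 CPM in BH-WT livers. It fell by 1.23 ± 0.37 (adjusted p = 0.0221) without overlap.

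Scd1 read 1776, 293 and 346 CPM in BH-KO livers, against 1357, 1718 and 1593 CPM in BH-WT livers. BH-KO replicate 1 was above every BH-WT library and the other 2 were far below, so the difference of -0.95 ± 0.58 did not pass (adjusted p = 0.228). Without BH-KO replicate 1 it was -2.29 and passed (adjusted p = 0.000968). Acacb showed the same library apart, at 10.8, 47.8 and 35 CPM in BH-KO livers, against 33.8, 41.1 and 34.5 CPM in BH-WT livers. Its log2 fold change was -0.21 ± 0.58 (adjusted p = 0.813) with all libraries and 0.18 without BH-KO replicate 1. Acly read 116 to 175 CPM in BH-KO and 150 to 211 CPM in BH-WT livers, and Me1 123 to 163 CPM in BH-KO and 122 to 135 CPM in BH-WT livers. Acaca read 67.2 to 96.7 CPM in BH-KO and 65.1 to 84.6 CPM in BH-WT livers, and Elovl6 93.9 to 103 CPM in BH-KO and 76.7 to 105 CPM in BH-WT livers. These 4 genes overlapped between the groups, with log2 fold changes of -0.35 to 0.23 that did not pass. Fasn lost its call without BH-KO replicate 2, BH-KO replicate 3 or BH-WT replicate 3 (adjusted p 0.014 to 0.0955 over the 6), and Mlxipl did not pass when only the BH-KO and BH-WT libraries were fitted (adjusted p = 0.0546). Hepatocyte markers summed to 35100, 41800 and 80000 CPM in the 3 BH-KO livers, sorted by value, against 102000 to 131000 CPM in BH-WT livers. Alb held much of that sum (13810 to 42220 CPM in BH-KO and 73170 to 97680 CPM in BH-WT livers). Of the 7 markers, 1 rose and 1 fell, against 14.3% and 14.3% of all genes. Macrophage markers summed to 27.6 to 76.5 CPM in BH-KO and 90.4 to 603 CPM in BH-WT livers, and cholangiocyte markers to 103 to 343 CPM in BH-KO and 40 to 77.3 CPM in BH-WT livers. Their part in these results was not tested.

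In the livers labelled BH-HF-KO, no gene of the 10 passed against BH-HF-WT. Of all genes 0% were called (0 of 13958 by edgeR's quasi-likelihood test and 0 by DESeq2), with 490 at an unadjusted p under 0.05. Of the 10 genes, 7 had an unadjusted p under 0.05 and 4 did not overlap between the groups, against 10.4% of all genes, and each of the 10 had an adjusted p of 1. The median log2 fold change was -0.54 over the 10 genes and -0.00161 over all genes. Srebf1 read 485, 321 and 389 CPM in BH-HF-KO livers, against 578, 687 and 562 CPM in BH-HF-WT livers (-0.61 ± 0.20). Acaca read 61.7, 60.2 and 87.3 CPM in BH-HF-KO livers, against 108, 110 and 91.2 CPM in BH-HF-WT livers (-0.56 ± 0.18). In both genes the BH-HF-KO values lay below all BH-HF-WT values.

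Scd1 read 1082, 1600 and 2156 CPM in BH-HF-KO livers, against 4513, 5721 and 2971 CPM in BH-HF-WT livers (-1.45 ± 0.59), also without overlap. Fasn read 222, 154 and 449 CPM in BH-HF-KO livers, against 711, 731 and 298 CPM in BH-HF-WT livers (-1.08 ± 0.37), and replicate 3 of each group lay within the range of the other. Thrsp read 848, 416 and 825 CPM in BH-HF-KO livers, against 1459, 1884 and 748 CPM in BH-HF-WT livers (-0.97 ± 0.36), with overlap. The lower BH-HF-WT values of Fasn, Scd1, Thrsp and Acly all came from replicate 3, in which 9 of the 10 genes were below their group mean on the log2 scale. Mlxipl was the fourth gene without overlap, at 399 to 432 CPM in BH-HF-KO and 365 to 394 CPM in BH-HF-WT livers (0.12 ± 0.16). Acly was at -0.52 ± 0.22, Elovl6 at -0.38 ± 0.15, Acacb at 0.07 ± 0.59 and Me1 at -0.02 ± 0.45. Hepatocyte markers summed to 73600 to 85100 CPM in BH-HF-KO and 114000 to 139000 CPM in BH-HF-WT livers. Alb held much of that sum (29890 to 41400 CPM in BH-HF-KO and 71910 to 90870 CPM in BH-HF-WT livers). Of the 7 markers, 0 rose and 0 fell. The part of these markers in the values above was not tested.

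**Figure D2:**
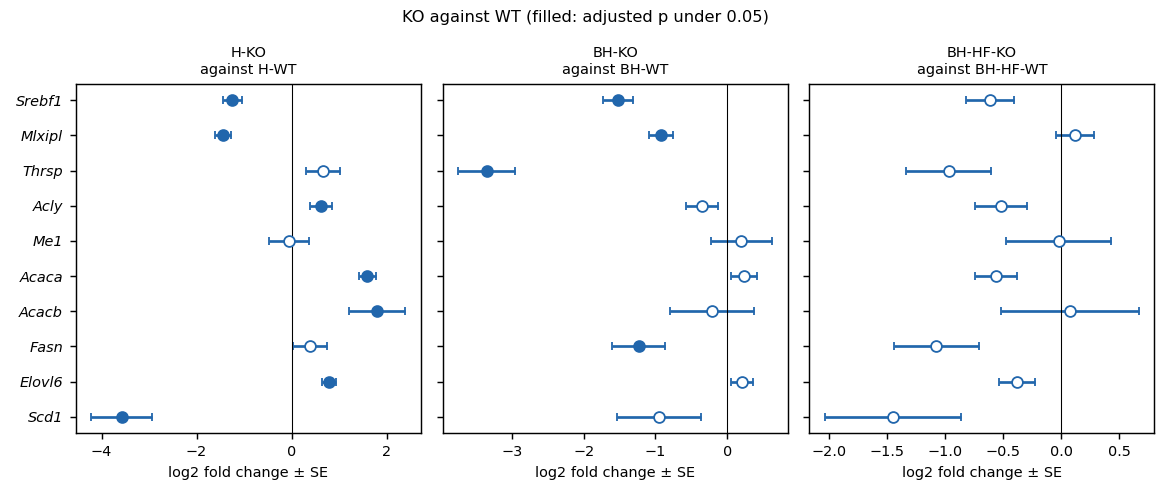
Log2 fold change of KO over WT (± SE) for the 10 genes in the 3 settings; filled points passed at an adjusted p under 0.05, and each panel has its own horizontal scale. Srebf1 is below 0 in all 3 panels (-1.25, -1.52 and -0.61), while Thrsp is at 0.66 in the H line, -3.36 in the BH line and -0.97 in the high-fat setting.

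The KO effects were also set against each other by interaction contrasts. The KO effect on Thrsp was lower in the BH than in the H line by 4.01 ± 0.53 on the log2 scale (-3.36 against 0.66, adjusted p = 0.000938). The 0.66 of the H line had not itself passed (adjusted p = 0.174). The KO effect on Acaca was lower by 1.36 ± 0.25 (0.23 against 1.59, adjusted p = 0.00729). These were 2 of 10 genes, where 6.06% of all genes were called (3.76% higher and 2.3% lower). The 846 genes behind that share were 498 with only these groups and 344 to 1247 without 1 library, over 1.5 times fewer without any 1 of the H-KO libraries, H-WT 2, H-WT 3 or BH-WT 2. For Srebf1 the interaction was -0.27 (95% interval -0.88 to 0.34), so the 2 lines were not shown to differ in it. For Scd1 it was 2.63 ± 0.83 (adjusted p = 0.0705) and 1.30 without BH-KO replicate 1. For Fasn it was -1.61 ± 0.52 (adjusted p = 0.0755).

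Between BH-HF and BH, the KO effect was higher by 2.39 ± 0.52 for Thrsp (-0.97 against -3.36, adjusted p = 0.0147) and by 1.04 ± 0.23 for Mlxipl (0.12 against -0.92, adjusted p = 0.0166). These were 2 of 10 genes, where 6.1% of all genes were called (3.45% higher and 2.65% lower), and both contrasts share the BH-KO and BH-WT libraries. The 851 genes behind that share were 431 with only these groups, 3046 without BH-KO replicate 1 and 353 without BH-KO replicate 3, and moved by over 1.5 times without any library other than BH-WT 2 or BH-HF-KO 3. The Mlxipl difference lost its call without BH-KO replicate 3 (adjusted p = 0.0517) and with only these groups (adjusted p = 0.0517). The Thrsp difference lost its call with no filter on low counts (adjusted p = 0.0539). Srebf1 differed by 0.91 ± 0.29 (adjusted p = 0.0734) and passed without BH-KO replicate 1 (1.04, adjusted p = 0.0165). Each of these values includes the libraries labelled BH-HF-KO.

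BH-KO livers set directly against H-KO livers were lower in most steps of the pathway. Of the 10 genes, 6 fell and none rose, where 16.4% of all genes were called (10.1% rose and 6.3% fell). The 2292 genes behind that share were 919 with only these groups and 1191 to 2339 without 1 library, lowest without any 1 of the H-KO libraries. The groups did not overlap in 7, against 36.2% of all genes. The median log2 fold change was -1.11 over the 10 genes and 0.03 over all genes. The libraries are those of the KO comparisons above, and the contrast holds the line and the label together.

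Thrsp fell by 3.00 ± 0.39 (53.3 ± 19.6 CPM in BH-KO and 427 ± 126 CPM in H-KO livers, SD, n = 3 each, adjusted p = 0.000156), or 8-fold. Fasn fell by 1.98 ± 0.38 (140.2 ± 39.4 CPM in BH-KO and 551 ± 48.6 CPM in H-KO livers, adjusted p = 0.00289). Acly fell by 1.45 ± 0.23 (adjusted p = 0.000643), Acaca by 1.43 ± 0.18 (adjusted p = 0.000128) and Elovl6 by 0.71 ± 0.15 (adjusted p = 0.00511). Srebf1 fell by 0.80 ± 0.21 (60 ± 10.2 CPM in BH-KO and 104 ± 18.8 CPM in H-KO livers, adjusted p = 0.0156), a call lost without H-KO replicate 1 or BH-KO replicate 2 (adjusted p 0.01 to 0.0758 over the 6). Acacb was at -1.75 ± 0.59 without overlap and did not pass (adjusted p = 0.0567). Scd1 was at 1.51 ± 0.59 (adjusted p = 0.0919) with all libraries and at 0.18 without BH-KO replicate 1. Mlxipl was at 0.49 ± 0.16 (adjusted p = 0.0537), and Me1 at 0.06 ± 0.42, or -0.01 with upper-quartile scaling.

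The WT livers of both lines were also compared. In BH-WT against H-WT no gene of the 10 passed, where 0.165% of all genes were called (23 genes, and 7 to 18 without 1 library, lowest without H-WT 2 or any 1 of the BH-WT libraries). There were 3 genes without overlap, where 14.7% of all genes did not overlap. Thrsp was at 547 ± 128 CPM in BH-WT and 271 ± 52.9 CPM in H-WT livers (SD, n = 3 each), a difference of 1.01 ± 0.36 (adjusted p = 0.435). Srebf1 was at 172 ± 25.9 CPM in BH-WT and 248 ± 58.7 CPM in H-WT livers (-0.53 ± 0.20, adjusted p = 0.464), and Acly at 176 ± 31.5 CPM in BH-WT and 246 ± 17.3 CPM in H-WT livers (-0.48 ± 0.22, adjusted p = 0.527). The 95% interval of the Thrsp difference was 0.24 to 1.78, and that of Scd1 -2.36 to 0.12. These WT libraries also enter the KO comparisons above.

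WT livers at 45 weeks after the high-fat diet had more Srebf1 RNA and less Me1 than WT livers of the same line at 10 weeks. They also had more Thrsp, by a call that was not firm. In BH-HF-WT against BH-WT, 2 of the 10 genes rose and 1 fell, where 7% of all genes were called (2.79% rose and 4.21% fell). The 977 genes behind that share were 225 to 1014 without 1 library, and over 1.5 times fewer without any 1 other than BH-WT replicate 1. The groups did not overlap in 5 genes, against 31% of all genes. The median log2 fold change was 0.53 over the 10 genes and -0.015 over all genes. Srebf1 read 578, 687 and 562 CPM in BH-HF-WT livers, against 183, 142 and 190 CPM in BH-WT livers. It rose by 1.83 ± 0.21 (adjusted p = 7e-04), or 3.54-fold, with a gap between the groups wider than either range.

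Me1 read 10, 38.3 and 19.5 CPM in BH-HF-WT livers, against 131, 122 and 135 CPM in BH-WT livers. It fell by 2.51 ± 0.46 (adjusted p = 0.00872), or 5.7-fold, and was the one member to move this way past the threshold. Without 1 library the change was -3.13 (BH-HF-WT replicate 2) to -2.16 (BH-HF-WT replicate 1), past the threshold each time. In the livers labelled BH-HF-KO it was as low, at 18.4, 8.94 and 39.1 CPM. Thrsp read 1459, 1884 and 748 CPM in BH-HF-WT livers, against 479, 466 and 694 CPM in BH-WT livers. All BH-HF-WT values were higher, replicate 3 by little, and Thrsp rose by 1.32 ± 0.37 (adjusted p = 0.0416). Its call was lost without any library of the 6 other than BH-HF-WT replicate 3 (adjusted p 0.027 to 0.178 over the 6). It was also lost with no filter on low counts (adjusted p = 0.114), with limma-voom (0.0968) and with only these groups (0.0695).

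Scd1 read 4513, 5721 and 2971 CPM in BH-HF-WT livers, against 1357, 1718 and 1593 CPM in BH-WT livers. The groups did not overlap, but the difference of 1.5 ± 0.59 did not pass (adjusted p = 0.129). Fasn (0.82 ± 0.37), Acly (0.58 ± 0.22) and Acaca (0.49 ± 0.18) had unadjusted p-values of 0.0157 to 0.0411 and did not pass. Mlxipl was at 381 ± 14.8 CPM in BH-HF-WT and 354 ± 28.2 CPM in BH-WT livers, a difference of 0.10 with a 95% interval of -0.24 to 0.45. Elovl6 was at -0.23 ± 0.15 and Acacb at -0.54 ± 0.59. Adipocyte markers summed to 16.7 to 40.2 CPM in BH-HF-WT and 6.74 to 12.1 CPM in BH-WT livers, with Lep at 0 in both. Stellate cell and fibroblast markers summed to 92.6 to 143 CPM in BH-HF-WT and 207 to 336 CPM in BH-WT livers, and lymphocyte markers to 0.749 to 2.82 CPM in BH-HF-WT and 3.65 to 7.48 CPM in BH-WT livers, both without overlap. Cholangiocyte markers summed to 21.6 to 35.3 CPM in BH-HF-WT and 40 to 77.3 CPM in BH-WT livers, also without overlap, and macrophage markers to 32.5 to 134 CPM in BH-HF-WT and 90.4 to 603 CPM in BH-WT livers. The part of these markers in the results was not tested.

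**Figure D3:**
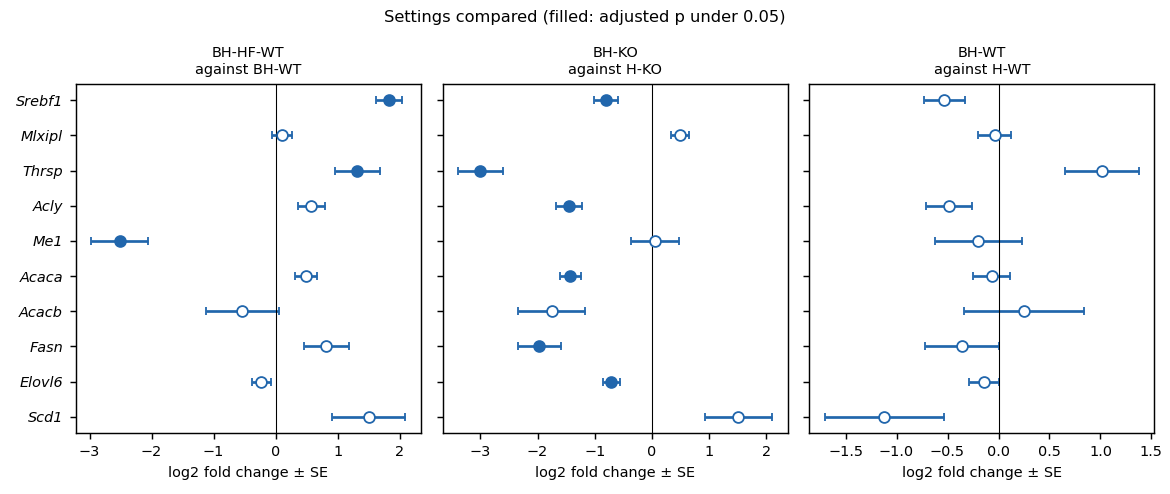
Log2 fold change (± SE) of the 10 genes in BH-HF-WT over BH-WT, BH-KO over H-KO and BH-WT over H-WT livers; filled points passed at an adjusted p under 0.05, and each panel has its own horizontal scale. Srebf1 (1.83) and Me1 (-2.51) stand farthest from 0 in the first panel and Thrsp (-3.00) in the second.

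Across the 6 groups, Srebf1 gave the cleanest order. From low to high its means were 60 CPM in BH-KO, 104 CPM in H-KO, 172 CPM in BH-WT, 248 CPM in H-WT, 398 CPM in BH-HF-KO and 609 CPM in BH-HF-WT livers. The libraries of neighbouring groups did not overlap at any step, but few of these steps passed a test. BH-KO against H-KO passed (adjusted p = 0.0156). BH-WT against H-WT (adjusted p = 0.464) and BH-HF-KO against BH-HF-WT did not pass, and the other neighbouring pairs were not tested. Thrsp had the widest span, 56.1-fold between 33.6 CPM in BH-KO replicate 1 and 1884 CPM in BH-HF-WT replicate 2. Me1 split by setting rather than by label, with 4 young groups at means of 129 to 148 CPM and both high-fat groups at 22.2 and 22.6 CPM. Acaca, Acacb, Acly and Elovl6 each had H-KO as the highest group, without overlap with the next. The shares of all genes with such an order of groups or such a highest group were not computed. Scaled to exon length, BH-WT livers had most Scd1 (318 CPM per kb) and Thrsp (249.7 CPM per kb) and least Acaca (4.31) and Acacb (3.79 CPM per kb). In H-KO livers Scd1 was at 57.8 CPM per kb, below Thrsp (195) and Acly (71.4 CPM per kb).

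The ratio of counts of 2 genes within a library does not depend on the scaling between libraries. The ratios below were chosen after their values were seen and were not tested. Fasn over Srebf1 was 4.04 to 6.43 in H-KO and 1.49 to 1.97 in H-WT livers, so the synthase was high relative to its regulator in every H-KO library. It was 2.12 to 2.6 in BH-KO and 1.44 to 2.32 in BH-WT livers, with overlap. Scd1 over Fasn was 0.441 to 0.573 in H-KO and 3.33 to 15.8 in H-WT livers. No other group had a library below 1 in this ratio, and BH-KO livers had 2.64 to 9.69 against 4.04 to 5.21 in BH-WT livers. Thrsp over Fasn was 0.183 to 0.684 in BH-KO and 1.41 to 1.81 in BH-WT livers, and 0.639 to 0.96 in H-KO and 0.595 to 0.693 in H-WT livers.

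**Figure D4:**
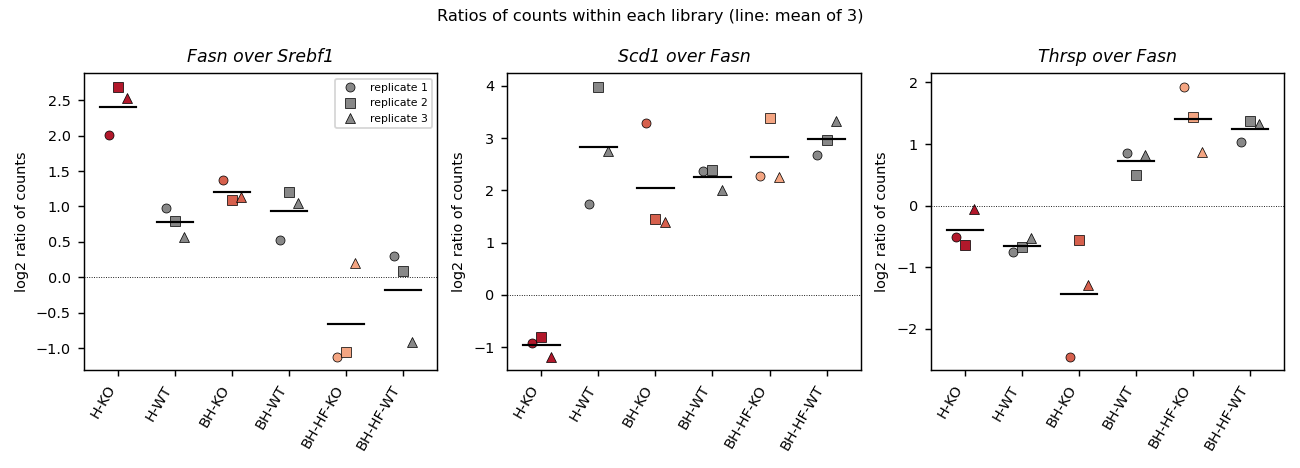
Log2 ratios of counts within each library for 3 gene pairs, by group, with a symbol for each replicate number and a line at the mean of 3. The H-KO libraries stand highest in Fasn over Srebf1 (4.04 to 6.43 on the linear scale) and are the only ones below 0 in Scd1 over Fasn, and BH-KO replicate 1 is lowest in Thrsp over Fasn (0.183).

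The members did not move as 1 block. Over the 18 libraries the log2 CPM of 28 of the 45 gene pairs correlated above 0 (median Pearson r 0.239), and 35 of 45 did so within groups (median 0.366). The closest pairs were Acly and Fasn (0.894 over all libraries, 0.859 within groups) and Mlxipl and Scd1 (0.884 and 0.79). Mlxipl and Elovl6 ran opposite ways over all libraries (-0.787) and not within groups (0.248). Points share their library, its scaling and the group differences, so these values describe the 18 libraries. Among 10270 other genes, the profiles nearest to Srebf1 were Map2k3 (r = 0.976), Pdk2 (0.971) and Dnajc11 (0.96), and those nearest to Mlxipl were Ido2 (0.988), Aspdh (0.986) and Prodh2 (0.986). The nearest to Thrsp were Mknk2 (0.891), Hnmt (0.89) and Gcn1l1 (0.887), and to Fasn Bhlhe40 (0.827), Tob2 (0.817) and Slc25a32 (0.806).

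Genes around the pathway were followed in 6 lists. In H-KO against H-WT, where 15.8% of all genes rose and 19.1% fell, the list on control of SREBP-1c had 2 of 17 genes rise and 10 fall. Insig1, which holds the SREBP precursor in the endoplasmic reticulum and is itself an SREBP target, fell by 3.42 ± 0.53 (23.7 CPM in H-KO and 255 CPM in H-WT livers), while its relative Insig2 rose by 1.51 ± 0.28. Of 12 genes of sugar use linked to ChREBP, 1 rose and 5 fell. Txnip rose by 2.39 ± 0.57, and Pklr, the liver pyruvate kinase, fell by 2.66 ± 0.48. Of 10 genes that supply citrate and NADPH, 3 rose and 5 fell (3 fell without H-WT replicate 3 and with upper-quartile scaling). The pentose phosphate enzymes G6pdx (1.96 ± 0.40) and Pgd (1.55 ± 0.15) rose, and Slc25a1, the mitochondrial citrate carrier, fell by 1.86 ± 0.20.

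Of 11 genes that control acetyl-CoA carboxylase or are governed by malonyl-CoA, 2 rose and 5 fell in H-KO livers against the same shares over all genes (15.8% and 19.1%), a split that turned to 3 and 2 with upper-quartile scaling, which moved the median of all genes by 0.154. Cpt1a, the malonyl-CoA-sensitive gate of fatty acid oxidation, fell by 0.68 ± 0.16. Of 13 genes that use the new fatty acid, 2 rose and 7 fell. Pnpla3, an SREBP-1c target that encodes a lipid droplet protein, rose by 4.67 ± 0.78 (40.3 CPM in H-KO and 1.6 CPM in H-WT livers), and the desaturase gene Fads2 fell by 3.01 ± 0.49. Of 12 fasting-response genes, 3 rose and 1 fell, led by Pdk4 (3.90 ± 0.72) and Acot1 (3.81 ± 0.78), and the fall, in Pck1, was lost in each of the 6 fits that left out 1 library. Without 1 library, rises were 1 of 11 in the carboxylase-control list (that being H-KO 2, H-WT 1 or H-WT 2) and 1 of 13 in the new fatty acid list (H-KO 3 or H-WT 2), and falls in the carboxylase-control list were 3 of 11 at the lowest (H-KO 1, H-KO 3, H-WT 1 or H-WT 2). The named genes other than Pck1 had adjusted p-values of 9.15e-06 to 0.00545.

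In BH-KO against BH-WT, where 14.3% of all genes rose and 14.3% fell, the SREBP-1c list had 2 of 17 genes rise and 10 fall. Insig2 rose by 1.98 ± 0.28 (371 CPM in BH-KO and 94.3 CPM in BH-WT livers, adjusted p = 0.000201). Ppargc1b, a coactivator of SREBP-1c, fell by 1.57 ± 0.31 (adjusted p = 0.00224). Of the sugar genes, 2 of 12 rose and 6 fell, and the falls included the glucose transporter gene Slc2a2 (-2.12 ± 0.19, adjusted p = 4.54e-06). Of the citrate and NADPH genes 1 of 10 rose (Pgd) and 2 fell, and of the carboxylase-control genes 1 of 11 rose (Prkab2) and 3 fell, among them Cpt1a (-1.19 ± 0.16, adjusted p = 0.000114). None of 13 genes that use the new fatty acid rose and 4 fell, among them Dgat2, which makes triglyceride (-1.54 ± 0.21, adjusted p = 0.000128). Of 12 fasting-response genes 3 rose, led by Pdk4 (4.69 ± 0.77, 66.1 CPM in BH-KO and 2.52 CPM in BH-WT livers, adjusted p = 0.000814).

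These BH-KO counts moved with the libraries. Without BH-KO replicate 1, falls were 7 of 13 genes that use the new fatty acid (with 1 rise) and 3 of 12 fasting genes, and 3 of 10 citrate and NADPH genes rose. Without BH-KO replicate 2 or 3, falls were 3 of 12 sugar genes and 7 of 17 in the SREBP-1c list. Without BH-KO replicate 2, 1 of 11 carboxylase-control genes fell. In the SREBP-1c list 1 rose without BH-KO replicate 3, and of the citrate and NADPH genes 1 fell without BH-KO replicate 2, BH-KO replicate 3, BH-WT replicate 1 or BH-WT replicate 3. Rises of fasting genes were 1 of 12 without BH-KO replicate 3, BH-WT replicate 1 or BH-WT replicate 3, and 1 gene that uses the new fatty acid rose without BH-WT replicate 2. Fitting only the BH-KO and BH-WT libraries left 3 falls of 17 in the SREBP-1c list and 2 of 12 among the sugar genes.

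No gene of the 6 lists passed in BH-HF-KO against BH-HF-WT. In BH-HF-WT against BH-WT, where 2.79% of all genes rose and 4.21% fell, 2 of 12 sugar genes rose (1 without BH-WT replicate 1 or 2 or BH-HF-WT replicate 1 or 2). Lpin1, which makes diacylglycerol, rose by 1.34 ± 0.20 (adjusted p = 0.00173), 1 of 3 rises among 13 genes that use the new fatty acid (1 rise without BH-WT replicate 2 or BH-HF-WT replicate 2). Of the fasting list, 3 of 12 fell, among them Cyp4a14 (-4.36 ± 0.94, adjusted p = 0.0176) and Cyp4a10 (-4.32 ± 0.89, adjusted p = 0.0153), both PPARα targets. None of this list fell without BH-WT replicate 2 or BH-HF-WT replicate 2, and 1 fell without BH-HF-WT replicate 1. In the SREBP-1c list 1 of 17 fell, Srebf2 (-0.69 ± 0.16, adjusted p = 0.0177), a call lost without BH-HF-WT replicate 2 or 3. No citrate, NADPH or carboxylase-control gene passed.

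**Figure D5:**
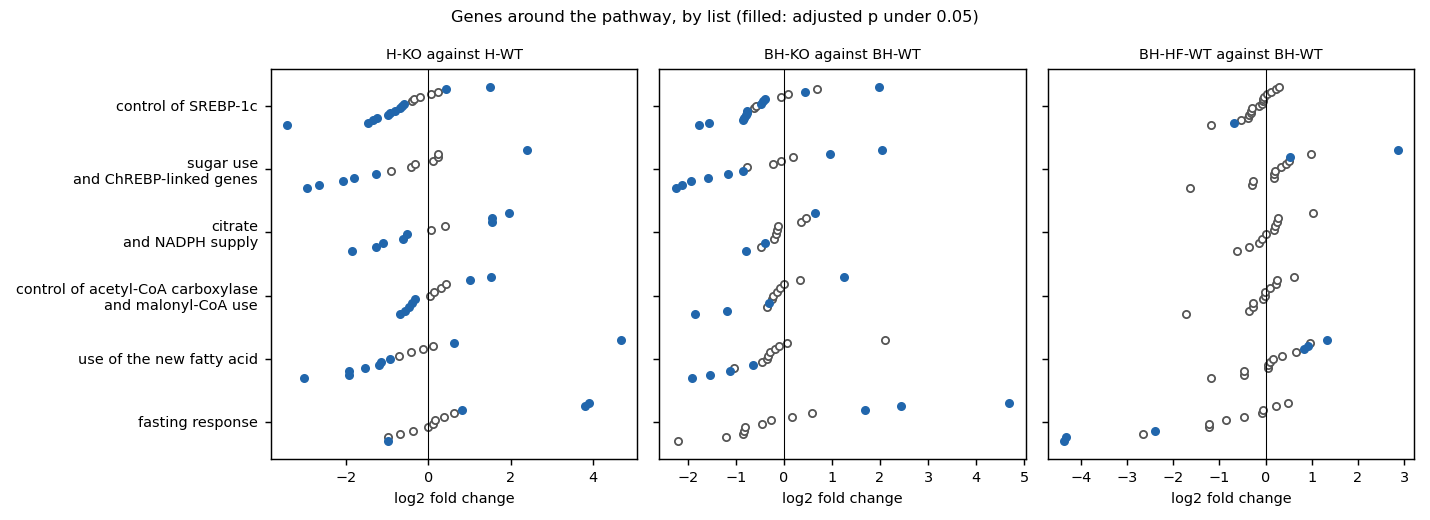
Log2 fold change of each gene in 6 lists around the pathway, in H-KO over H-WT, BH-KO over BH-WT and BH-HF-WT over BH-WT livers; filled points passed at an adjusted p under 0.05, points of a list are stacked by value, and each panel has its own horizontal scale. Of the 17 genes of the SREBP-1c list, 10 are filled points below 0 in each of the first 2 panels, against 1 in the third.

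The gene-level counts leave some limits. They cannot separate the SREBP-1a and SREBP-1c transcripts of Srebf1, or the ChREBP isoforms of Mlxipl. No source used here gives how reads were assigned by strand, and exons of Srebf1 share 109 bases with Rai1 on the opposite strand (at most 408 counts for Rai1 in a library). Exons of Mlxipl, Elovl6 and Me1 share 235, 34 and 30 bases with antisense genes of at most 82 counts.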

How the data were processed

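Liver RNA of 18 mice was sequenced. The deposited table holds raw read counts per gene ID, 1 column per library, made by the authors. STAR 2.6 and mm10 are named per the submitters' processing notes; for the read counter, its use of strand and the library kit, nothing was given in the sources used. Replicates are separate samples by their labels. From these counts, levels were computed as CPM with TMM factors (0.83 to 1.38), and log2 CPM with a prior count of 2. Comparisons used edgeR 4.0.16 (R 4.3.3) in 1 fit of all 18 libraries with a term per group (quasi-likelihood F-test, robust, two-sided, 12 residual degrees of freedom), on the 13958 genes that passed filterByExpr (minimum count 10). P-values were Benjamini-Hochberg adjusted over all of them, with a threshold of 0.05, and every adjusted p given is from this test unless another is named. Each SE was derived from the test, as the size of the log2 fold change over the square root of its F. Intervals are 95%, use the test's total degrees of freedom (prior and residual), and cover the fit's error. Exon lengths are those of the GENCODE M21 annotation on mm10.

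The members and lists were chosen with earlier results of these data known. Named were all 10 members, Hnf4a and Arntl, and for 4 members the 3 genes with the nearest profile. List genes were named from up to 2 of each list with the largest rise and up to 2 with the largest fall. These had passed and reached 5 CPM or more in any 1 group. Not all of the list genes so selected are given, so the named ones do not show the balance of rises and falls. Genes named for the checks were chosen after their values were seen. Alternatives were DESeq2 1.42.0, limma-voom (limma 3.58.1), DESeq2 size factors, upper-quartile factors, no filter or a stricter one (1 CPM in 3 libraries), only the groups compared, stricter thresholds, a replicate block, and fits without 1 library at a time. The scripts were tested on simulated data. A gene that this rule also names is not reported here.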

Additional observations from a re-analysis of the deposited data

Results flagged for a closer look

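In 4 cases the effect of the KO label differed between settings by a test of the difference itself (edgeR quasi-likelihood, Benjamini-Hochberg adjusted over all genes). The Thrsp difference between the BH and H lines was -4.013 on the log2 scale (adjusted p = 0.000938). Every BH-KO library was below every BH-WT library, and every H-KO library was above every H-WT library. In those comparisons 34.9% and 51.9% of all genes did not overlap. The H-KO difference itself did not pass (0.66, adjusted p = 0.174). The WT livers enter the value too, and Thrsp was higher in BH-WT than in H-WT livers by 1.01, which did not pass (adjusted p = 0.435). The Acaca difference between the same lines was -1.358 (adjusted p = 0.00729). Between BH-HF and BH, the difference was 2.386 for Thrsp (adjusted p = 0.0147) and 1.042 for Mlxipl (adjusted p = 0.0166), both of which include the libraries labelled BH-HF-KO. Neither was firm. Thrsp did not pass with no filter on low counts (adjusted p = 0.0539). Mlxipl did not pass without BH-KO replicate 3 (0.0517) or with only these groups (0.0517).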

How the results depend on the processing

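With DESeq2 size factors or the stricter filter, all 80 log2 fold changes of the members kept their direction and side of the threshold. Calls of members moved in other fits, and those not given above follow. With upper-quartile factors, Acaca passed in the BH-HF against BH interaction (adjusted p = 0.0476). Fitting without the low-count filter gave 516 genes for the BH against H interaction and 35 for BH-WT against H-WT, with 1 member for the BH-HF against BH interaction. In that fit Acly (adjusted p = 0.0508) and Acacb (0.0799) lost their calls in H-KO, and Fasn (0.0796) in BH-KO. DESeq2's Wald test gave 1394 genes and 5 members for the BH against H interaction, 1315 and 4 for the BH-HF against BH interaction, 101 genes for BH-WT against H-WT and 1495 for BH-HF-WT against BH-WT. By this test Acly (adjusted p = 0.0382), Fasn (0.0257) and Scd1 (0.0129) passed in the BH against H interaction. Srebf1 (0.0345) and Acaca (0.0469) passed in the BH-HF against BH interaction. Mlxipl (0.0235), Acacb (0.0112) and Scd1 (0.0341) passed in BH-KO against H-KO. limma-voom gave 12 for BH-WT against H-WT. With limma-voom Acly lost its call in H-KO (adjusted p = 0.0625), and Mlxipl (0.0424) and Acacb (0.0325) passed in BH-KO against H-KO. Only the groups compared gave 1096 for BH-KO against BH-WT, 919 for BH-KO against H-KO, 498 for the BH against H interaction, and 431 genes with 1 member for the BH-HF against BH interaction. In these fits Thrsp passed in H-KO (adjusted p = 0.0445), Scd1 in BH-HF-WT (0.0178) and Fasn in the BH against H interaction (0.0223). An adjusted p under 0.01 gave 2972 (H-KO), 1821 (BH-KO), 910 (BH-KO against H-KO), 160 (BH-HF-WT), 6 (BH-WT), 162 (BH against H) and 205 with 0 members (BH-HF against BH). An adjusted p under 0.05 with at least a 2-fold change gave 2343, 1793, 990 and 563 for the first 4, and 497 and 565 for the interactions. Leaving out BH-KO replicate 1 and H-WT replicate 3 together, chosen after seeing the data, gave 6198 for BH-KO, 2118 for BH-HF-WT, 62 for BH-WT, and 3327 with 4 members for the BH-HF against BH interaction. Without both, Acly lost its call in H-KO (adjusted p = 0.0513). Scd1 passed in BH-KO (0.0017) and BH-HF-WT (0.0233), and Acly in the BH against H interaction (0.0471). Srebf1 (0.00784) and Elovl6 (0.0424) passed in the BH-HF against BH interaction. The cause of these moves was not tested.

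After each gene's group mean was subtracted, KO and WT libraries of a setting with the same replicate number correlated at -0.175 to 0.0436. The numbers were therefore not taken to pair the samples. The replicate block gave 14 genes for BH-WT against H-WT, and Thrsp in BH-HF-WT against BH-WT no longer passed (1.36, adjusted p = 0.0573).

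Without each library in turn, genes and members called ranged over 3787 to 4284 and 5 to 6 (H-KO), 2330 to 5916 and 3 to 5 (BH-KO), 0 to 1 and 0 to 0 (BH-HF-KO), 344 to 1247 and 2 to 3 (BH against H), 353 to 3046 and 1 to 3 (BH-HF against BH), 7 to 18 and 0 to 0 (BH-WT), 1191 to 2339 and 5 to 8 (BH-KO against H-KO), and 225 to 1014 and 2 to 3 (BH-HF-WT). An arm left with 2 libraries borrows its spread from the other groups.

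Directions turned only for log2 fold changes that had not passed. Me1 was 0.0953 in H-KO and -0.0139 in BH-KO against H-KO with upper-quartile factors. Acacb in BH-HF-KO was -0.159 with limma-voom and -0.140 with the block. With both libraries left out, Acacb was 0.179 in BH-KO, and in the BH-HF against BH interaction Acly was 0.0494, Acacb -0.105 and Scd1 0.839. Without 1 library, Me1 ranged over -0.162 to 0.0430 (H-KO), -0.0161 to 0.175 (BH-KO against H-KO) and -0.728 to 0.601 (BH-HF-KO), and Acacb over -0.640 to 0.180 (BH-KO), -0.834 to 0.435 (BH-HF-KO) and -0.110 to 0.888 (BH-WT). Mlxipl and Acaca in BH-WT ranged over -0.114 to 0.0289 and -0.180 to 0.0111. In the BH-HF against BH interaction the ranges were -0.423 to 0.0490 (Acly), -0.621 to 0.716 (Acacb), -0.894 to 0.838 (Scd1), -0.388 to 0.448 (Fasn) and -0.922 to 0.407 (Me1). Depth was lowest for Me1 and Acacb, with as few as 67 and 73 counts in a library.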
